A study of Homo sapiens with 36 samples.

Results

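Messenger RNA levels were compared between MCF-10A ER-Src cells in which the v-Src oncoprotein had been switched on and cells given the vehicle instead of tamoxifen. All of them were transfected with a control small interfering RNA (siRNA, Ctrli). The comparison rests on 4 of the 36 libraries of the series: the 2 libraries labelled Ctrli_TAM, from cells given tamoxifen (TAM) and labelled transformed, and the 2 libraries labelled Ctrli_ETH, from cells given ethanol (ETH) and labelled non-transformed. These libraries were chosen by their labels alone. MCF-10A is a spontaneously immortalized, non-tumorigenic human breast epithelial line, and every cell in both groups carried ER-Src, v-Src fused to the ligand-binding part of the estrogen receptor, which tamoxifen activates. The labels state 0.4 to 1 µM tamoxifen and 2 to 4 µM AZD0530, an inhibitor of Src family kinases, as the treatment used to induce transformation. For cells transfected with siRNA the methods give 4 µM AZD0530 and a treatment of 2 or 24 hours. Which of these times and which tamoxifen dose apply to these libraries, and whether the ETH cells also received AZD0530, is not given in the sources used here, so the action of Src, of tamoxifen itself and of AZD0530 cannot be told apart in this comparison.

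Src is a tyrosine kinase at the cell membrane that acts on adhesion complexes, on the MAP kinase cascade and on STAT3. STAT3 is a latent transcription factor that enters the nucleus once phosphorylated and turns on acute phase genes, survival genes and its own inhibitors. AP-1 is a family of dimers of Jun, Fos, ATF and Maf proteins that binds DNA downstream of MAP kinases, and with NF-κB it drives many inflammatory genes. In this cell model the inflammatory factors NF-κB, STAT3 and AP-1 are known for linking Src activation to a transformed state.

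The 4 libraries held 11942413 and 10848740 expected counts in ETH and 10275885 and 6419720 in TAM, so that the second TAM library was the shallowest. Nothing in the labels says that the replicates came from separate cultures, and the p-values therefore measure only the spread between these libraries, which may be technical. *SRC*, the endogenous gene of the kinase, stood at 197 and 211 normalized counts in ETH and 221 and 186 in TAM, with overlapping groups (log2 fold change 0.00, SE 0.25, adjusted p 1). Reads assigned to *ESR1*, part of which is in the fusion, were at 2986 and 2891 in ETH and 3539 and 2219.6 in TAM, and the groups again overlapped (log2 fold change -0.03, SE 0.33, adjusted p 0.99); whether these reads came from the fusion was not tested. *CDKN2A* and *CDKN2B*, which lie in a deletion that MCF-10A is known for, had 0 counts in all 4 libraries, and the basal keratin *KRT5* had 42819 and 47197 normalized counts in ETH and 41825 and 40211 in TAM. Of 17 markers of leukocytes, endothelium and fibroblasts 8 could be tested and 1 was called (*CD68*, a lysosomal protein of macrophages and other cells, log2 fold change 1.75), and the 6 with a mean count of at least 10 had a median of 0.51, with 4 above 0, whereas the leukocyte markers *PTPRC* and *CD3E* had 0 counts in all 4 libraries. All genes of the mitochondrial genome together took 0.393% to 0.420% of counts in ETH and 0.421% to 0.524% in TAM. Several abundant RNAs without a poly(A) tail took 10.3% to 10.8% in ETH and 10.5% in both TAM libraries.

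Of 15934 genes tested, 974 (6.11%) passed an adjusted p of 0.01 with DESeq2, 726 higher in TAM (4.56%) and 248 lower (1.56%). All counts of called list members below are to be read against these shares. In all 974 the groups did not overlap, but a call with 2 libraries a group favours such genes. The share without overlap among all genes tested was not counted, so this adds nothing to the calls. The genes that rose did so by more than those that fell: the median size of the log2 fold change was 1.28 among the former and 0.84 among the latter, and 210 genes rose but 32 fell by at least 2 on the log2 scale. Over the 14037 genes whose mean count reached 10, the median was -0.02, with 6746 above 0 and 7291 below. Counts of list members above or below 0 are to be read against these numbers. A second test, the quasi-likelihood test of edgeR, called 682 of the 726 higher and 197 of the 248 lower genes in the same direction. With any 1 of the libraries left out, 420 to 500 genes were called, and 626 when replicate numbers were blocked. A gene is described below as "not held" where its call was lost under at least 1 of 11 alternative settings, and the largest adjusted p among the settings in which it was lost is given with that setting; other settings can have ended the call too. Of the 316 called genes that belonged to the lists described here or to the largest changes, 152 were called under all 11.

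**Figure D1:**
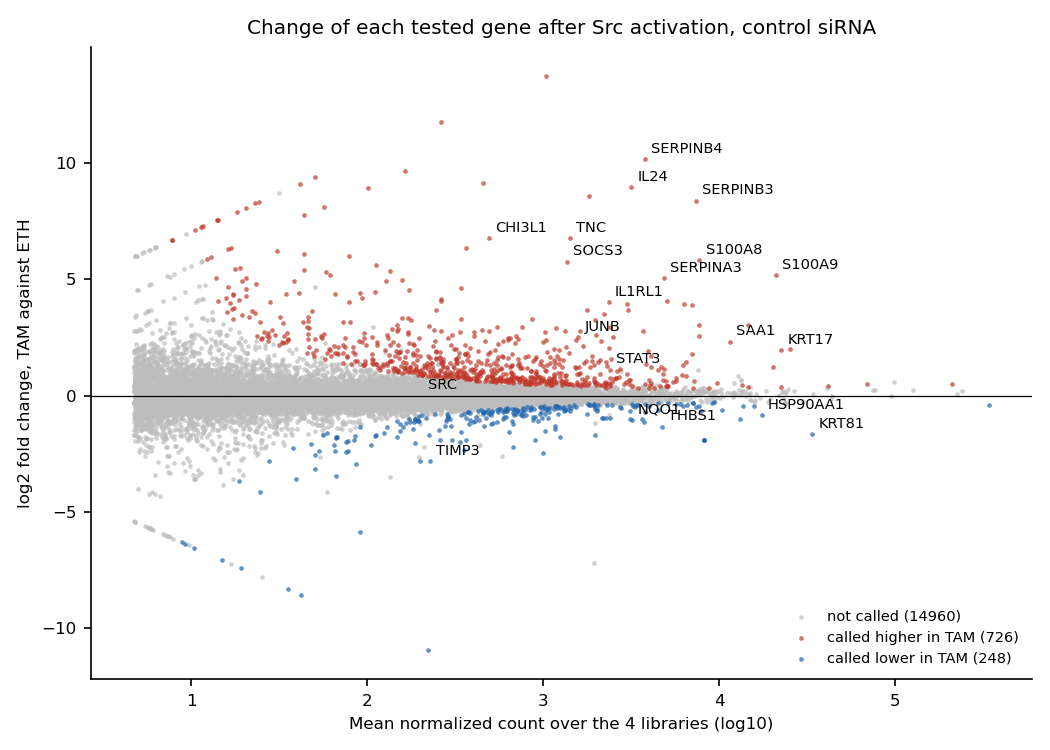
Each point is one of the 15934 tested genes, plotted by its mean normalized count over the 4 libraries (log10 axis) and its log2 fold change of TAM against ETH, with called genes in red (higher, 726) and blue (lower, 248). Genes that rose spread up to a log2 fold change of about 10, whereas *SRC* lies at 0.00.

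Among the 15 protein-coding genes that rose most (mean normalized count of at least 100) were serpins, proteases, secreted and matrix proteins and S100 calcium-binding proteins. *SERPINB4* (ENSG00000206073.10, chromosome 18, 63637259 to 63644256, minus strand, GRCh38), an inhibitor of serine and cysteine proteases, had 6.9 and 6.08 normalized counts in ETH and 8112 and 7066 in TAM (log2 fold change 10.19, SE 0.38, adjusted p 3.4e-158). Its neighbour *SERPINB3* (ENSG00000057149.14, chromosome 18, 63655197 to 63661893, minus strand) had 51.3 and 35.6 in ETH and 15334 and 14134 in TAM (log2 fold change 8.39, SE 0.17, adjusted p below the smallest number the software can hold). Both TAM libraries lay far above both ETH libraries for each of them, and although the genes are near-identical copies, the spread of the read assignment reported by RSEM was 0.84% and 0.434% of their mean. The others that rose were *IL24*, *STC1*, *TNC*, *CHI3L1*, *ADAMTS4*, *TMPRSS4*, *FGL1*, *GRAMD1B*, *S100A8*, *S100A9*, *SOCS3*, *GSDMC* and *TENT5C*. Leaving aside *FGL1* and *TMPRSS4*, which rested on 1 count each in ETH, their log2 fold changes ran from 5.19 (*S100A9*) to 9.13 (*ADAMTS4*). *ADAMTS4* was also near the floor in ETH, at 1.53 and 1.74 normalized counts, so the size of its change is uncertain. *STC1*, a secreted glycoprotein hormone, had 9.19 and 9.56 normalized counts in ETH and 4014 and 3253 in TAM, and *FGL1*, a fibrinogen-like protein of the liver, had 0 and 0.869 in ETH and 195 and 206 in TAM, a ratio of 489 (95% counting interval 87.3 to 19389). *TMPRSS4*, a serine protease of the cell surface, rested on 1 count in ETH and 552 in TAM, a ratio of 802 after scaling with a 95% counting interval from 143 to 31722.

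The 15 protein-coding genes that fell most changed less. *TIMP3*, an inhibitor of metalloproteinases, had 385 and 411 normalized counts in ETH and 56.4 and 55.8 in TAM (log2 fold change -2.82, SE 0.27, adjusted p 2.3e-24), and the transcription factor gene *TFCP2L1* had 1678 and 1712 in ETH and 343 and 260.2 in TAM (log2 fold change -2.48, SE 0.16, adjusted p 7.5e-54). *ZBED2*, *SNCG*, *TINAGL1*, *SEMA3C*, *ANKRD2*, *TSC22D3* and *ID3* had log2 fold changes of -2.80, -2.32, -1.91, -1.91, -1.89, -1.80 and -1.69, and in each the TAM libraries lay below the ETH libraries. *KRT15* is described with the keratins, and *SLC16A14* (log2 fold change -1.79, not held, adjusted p 0.014 without Ctrli_ETH replicate 1) and *PNLIPRP3* (-1.68, not held, adjusted p 0.14 without Ctrli_ETH replicate 2) were less stable. The remaining 3 of the 15 are uncertain: *H4C12* and the readthrough gene *SENP3-EIF4A1* share reads with near-identical sequences, and *NME1-NME2* overlaps both of the genes it joins. *TIMP3* overlaps *SYN3* on the opposite strand, *SNCG* overlaps *MMRN2*, *ADAMTS4* overlaps another gene and *IL24* overlaps *FCMR*; whether counting used strand is not given in the sources used here.

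Many genes of the JAK-STAT pathway rose, with 26 of 57 tested members higher and 1 lower, against 4.56% and 1.56% of all genes. Of the 7 STAT factors, *STAT3* (ENSG00000168610.14, chromosome 17, 42313324 to 42388540, minus strand) had 1518 and 1489.6 normalized counts in ETH and 3507 and 3039 in TAM (log2 fold change 1.12, SE 0.11, adjusted p 2.1e-21), with both TAM libraries above both ETH libraries and the group means 2.18-fold apart. *STAT2*, a factor of interferon signaling, was also called (log2 fold change 0.67, not held, adjusted p 0.25 without Ctrli_ETH replicate 1), whereas *STAT6* at -0.01 (adjusted p 1) did not pass. Cytokine receptors moved as well. *OSMR*, the receptor subunit for oncostatin M, had 539 and 469 normalized counts in ETH and 1575 and 1290.2 in TAM (log2 fold change 1.51, SE 0.15, adjusted p 1.2e-20), and *IL4R* and *IL13RA1* rose by 1.58 and 1.11. The list also held *IL1R1* (1.99), whose receptor signals through MyD88 and NF-κB, and without it 25 of 56 members were higher. *IL6ST*, which encodes the shared subunit gp130, had 1766 and 1590.4 in ETH and 2255 and 2356 in TAM, with TAM above ETH (log2 fold change 0.46, not held, adjusted p 0.35 without Ctrli_ETH replicate 2). *IL20RB*, a receptor chain for IL-20 and IL-24, was the only one of the 19 tested receptors and kinases that was called lower (-0.93, not held, adjusted p 0.012 without Ctrli_ETH replicate 2). *OSMR* overlaps *RICTOR* on the opposite strand, and *IL20RB* overlaps *NCK1*.

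The feedback inhibitor *SOCS3* (ENSG00000184557.4, chromosome 17, 78356778 to 78360077, minus strand), which binds receptors and JAK kinases and shuts off STAT3 signaling, had 48.3 and 50.4 normalized counts in ETH and 2704 and 2670.3 in TAM (log2 fold change 5.77, SE 0.17, adjusted p 1.4e-235). The replicates of each group lay within a few percent of each other, and the groups were 54.5-fold apart. *CISH*, another inhibitor of the same family, had 17.6 and 13.9 in ETH and 115 and 80.5 in TAM (log2 fold change 2.64, not held, adjusted p 0.12 without Ctrli_TAM replicate 1) and overlaps *MAPKAPK3* on the opposite strand, and the phosphatase gene *PTPN2* rose by 0.93 (not held, adjusted p 0.01 without Ctrli_ETH replicate 1). Of 19 tested genes listed as STAT3 targets, 14 were higher and 0 lower, with a median log2 fold change of 1.64 over those with a mean count of at least 10, and 9 held under every alternative. The kinase gene *PIM1* had 75.1 and 81.7 normalized counts in ETH and 302 and 308 in TAM, *SBNO2*, a regulator of inflammation downstream of IL-10, had 485 and 548 in ETH and 2082 and 2277 in TAM, and the repressor gene *BCL6* had 189 and 248 in ETH and 836 and 668 in TAM. All of these lay clearly higher in both TAM libraries (log2 fold changes 1.96, 2.08 and 1.79). *BCL3*, a nuclear cofactor of NF-κB, changed by 2.09 (not held, adjusted p 0.09 without Ctrli_TAM replicate 1). Growth genes of the list did not pass: *MYC* was at -0.15 (adjusted p 0.62) and *CCND1*, which encodes cyclin D1, at -0.29 (adjusted p 0.24).

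Promoter sequences were searched for the letters that STAT and AP-1 dimers are known to bind. RefSeq windows from 250 bases before to 50 after a start (GRCh38.p14) were found for 10883 of the tested genes, in 15757 windows. The longer STAT motif TTCCNGGAA, on either strand, stood in 22 of 848 windows of genes called higher (2.59%), in 1 of 295 windows of genes called lower (0.339%) and in 185 of all 15757 (1.17%). The shorter form TTCNNNGAA, which contains every match of the longer one, stood in 8.37%, 5.08% and 6.29% of these windows. The AP-1 motif TGANTCA stood in 78 windows of genes called higher (9.20%), 23 of genes called lower (7.80%) and 868 of all (5.51%). In the 174 windows of genes that rose by at least 2 on the log2 scale, the AP-1 motif stood in 5.75%, the longer STAT motif in 5.17% and the shorter one in 9.77%. The windows of *SOCS3*, *IL24*, *S100A8*, *S100A9*, *SERPINB3*, *SERPINB4*, *CHI3L1*, *TENT5C* and *TNC*, all among the 15 genes named above, held no match to any of these motifs. Windows of the others among the 15 are not described here. For *SOCS3* the windows ran from 78359618 to 78359917 and from 78360876 to 78361175 on chromosome 17. Neither holds the gene start at 78360077 given above, so the sequence just before that start was not searched. These shares are given as a description. The promoters shown here are those of the factor genes *STAT3*, *JUNB* and *FOS*, none of which held a match in this window, and, chosen after the search because they hold matches, those of 2 genes with the STAT motif (*CISH*, at 4 places, and *LRG1*, an acute phase gene described below) and 1 with the AP-1 motif (*F3*, the gene of the coagulation starter tissue factor, log2 fold change 0.81, not held, adjusted p 0.033 without Ctrli_ETH replicate 2). They are written in the direction of transcription, 5′ to 3′, in lower case, with matches to TTCNNNGAA or TGANTCA in capitals.
CISH (chr3:50611725-50612024, minus strand): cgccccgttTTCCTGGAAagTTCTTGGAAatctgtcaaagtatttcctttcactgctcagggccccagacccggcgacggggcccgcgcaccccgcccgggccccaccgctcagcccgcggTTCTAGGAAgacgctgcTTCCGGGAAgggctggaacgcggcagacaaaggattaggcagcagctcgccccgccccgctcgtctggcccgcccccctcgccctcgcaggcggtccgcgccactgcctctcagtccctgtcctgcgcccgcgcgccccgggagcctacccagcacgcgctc
LRG1 (chr19:4539987-4540286, minus strand): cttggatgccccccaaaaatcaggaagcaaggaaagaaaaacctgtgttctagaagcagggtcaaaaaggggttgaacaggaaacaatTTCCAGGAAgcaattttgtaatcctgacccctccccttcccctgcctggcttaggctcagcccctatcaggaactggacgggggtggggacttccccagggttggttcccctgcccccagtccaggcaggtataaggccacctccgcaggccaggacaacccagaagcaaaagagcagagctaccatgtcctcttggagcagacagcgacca
F3 (chr1:94541710-94542009, minus strand): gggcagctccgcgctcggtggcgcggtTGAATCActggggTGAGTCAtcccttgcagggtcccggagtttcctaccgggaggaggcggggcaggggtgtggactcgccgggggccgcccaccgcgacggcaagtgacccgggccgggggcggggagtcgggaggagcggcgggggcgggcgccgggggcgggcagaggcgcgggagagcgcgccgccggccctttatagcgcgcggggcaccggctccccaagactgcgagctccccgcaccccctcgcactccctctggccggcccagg
STAT3 (chr17:42388393-42388692, minus strand): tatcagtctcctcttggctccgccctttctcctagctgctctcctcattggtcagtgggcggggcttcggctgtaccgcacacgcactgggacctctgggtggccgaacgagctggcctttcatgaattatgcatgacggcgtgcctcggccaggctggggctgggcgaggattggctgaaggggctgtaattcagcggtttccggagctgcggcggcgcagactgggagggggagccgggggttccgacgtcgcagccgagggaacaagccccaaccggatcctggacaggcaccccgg
JUNB (chr19:12791236-12791535, plus strand): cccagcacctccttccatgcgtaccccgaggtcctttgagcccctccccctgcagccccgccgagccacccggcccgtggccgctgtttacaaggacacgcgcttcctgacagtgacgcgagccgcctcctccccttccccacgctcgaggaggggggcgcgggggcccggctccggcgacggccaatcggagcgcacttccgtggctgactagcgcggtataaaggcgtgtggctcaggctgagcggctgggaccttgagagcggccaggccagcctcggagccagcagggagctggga
FOS (chr14:75278578-75278877, plus strand): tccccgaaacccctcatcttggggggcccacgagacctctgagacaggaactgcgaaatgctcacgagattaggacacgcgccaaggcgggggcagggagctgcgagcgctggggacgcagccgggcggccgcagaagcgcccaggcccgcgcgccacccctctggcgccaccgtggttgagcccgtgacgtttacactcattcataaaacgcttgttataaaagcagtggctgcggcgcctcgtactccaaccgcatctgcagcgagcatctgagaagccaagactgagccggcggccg

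Of 15 tested AP-1 family genes, 7 were higher in TAM and 0 lower, against 4.56% and 1.56% of all genes, and 6 held under every alternative. *JUNB* (ENSG00000171223.5, chromosome 19, 12791486 to 12793315, plus strand) had 411 and 528 normalized counts in ETH and 2246 and 3115 in TAM (log2 fold change 2.51, SE 0.17, adjusted p 1.4e-45). *FOS* (ENSG00000170345.9, chromosome 14, 75278826 to 75282230, plus strand) had 189 and 219 in ETH and 1165 and 1231 in TAM (log2 fold change 2.55, SE 0.16, adjusted p 2.2e-55). For both genes the lowest TAM library was several-fold above the highest ETH library, although the *JUNB* replicates differed more from each other than those of *FOS*. *FOSL2* had 663 and 662 in ETH and 2115 and 1767 in TAM and *ATF3*, a stress-induced member, had 16.1 and 15.6 in ETH and 151 and 135 in TAM (log2 fold changes 1.55 and 3.17). The largest fold in the list was that of *BATF3*, a member best known from dendritic cells, at 10.7 and 8.69 in ETH and 227 and 197 in TAM (log2 fold change 4.44, SE 0.43, adjusted p 6.9e-23). *JUN* was called at 0.83 (not held, adjusted p 0.61 without Ctrli_TAM replicate 2). *FOSL1*, *JUND*, *ATF2* and *MAFF* were at 0.81, 0.37, 0.12 and -0.21 and did not pass (adjusted p 0.093, 0.66, 0.91 and 0.84). Per gene length, *JUNB* stood at 62.7 ± 11.8 TPM (SD, n = 2) in TAM, *FOS* at 33.1 ± 0.573, *FOSL1* at 4.71 ± 0.177 and *JUND* at 8.37 ± 2.6. *HOOK2* overlaps *JUNB* on the opposite strand.

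Upstream and beside AP-1, 6 of 25 tested immediate early genes were higher and 1 lower, against 4.56% and 1.56% of all genes. *ZFP36*, whose protein destabilizes cytokine mRNAs, had 87.3 and 73 normalized counts in ETH and 449 and 359 in TAM (log2 fold change 2.34, SE 0.25, adjusted p 2.4e-18), and *CSRNP1*, *KLF9* and *KLF5* rose by 2.30, 1.68 and 1.26. *ID3*, an inhibitor of differentiation factors, had 335 and 345 in ETH and 93.7 and 119 in TAM and was the gene called lower (log2 fold change -1.69, SE 0.25, adjusted p 1.2e-09). Among the 20 tested inhibitors of MAP kinase signaling, 4 were higher, of which *SPRED1* (1.14) and the phosphatase gene *DUSP1* (0.69) held. The median of that list was 0.04, close to that of all genes. Of 17 tested Src family kinases and partners, 4 were higher: *LYN*, a Src family kinase, with 188 and 166 in ETH and 483 and 465 in TAM (log2 fold change 1.42, SE 0.20, adjusted p 1.7e-10), and *BCAR1*, which encodes the adhesion scaffold and Src substrate p130Cas, with 226 and 257 in ETH and 611 and 680.0 in TAM (log2 fold change 1.42, SE 0.18, adjusted p 7.1e-13). *PXN*, encoding paxillin, and the kinase gene *ABL2* changed by 0.91 (not held, adjusted p 0.2 without Ctrli_TAM replicate 1) and 0.75 (not held, adjusted p 0.065 without Ctrli_TAM replicate 1).

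**Figure D2:**
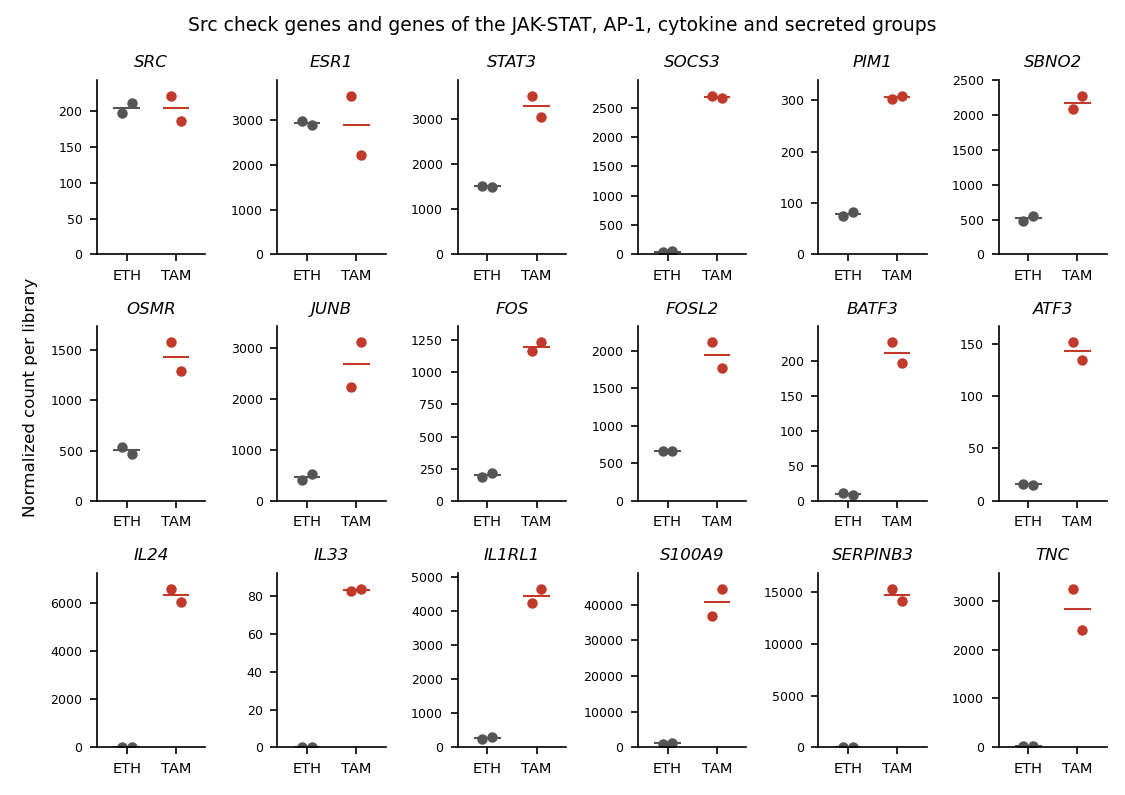
Normalized counts of 18 genes in each library, with grey points for the 2 ETH and red points for the 2 TAM libraries of the control siRNA, a bar at each group mean and each vertical axis starting at 0. *SRC* and *ESR1* overlap between the groups, and the other 16 genes are higher in both TAM libraries.

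NF-κB is a set of dimers that are held in the cytoplasm by inhibitor proteins and released by inflammatory signals. Of its 5 subunit genes, *RELB* was called (1.30, not held, adjusted p 0.041 without Ctrli_ETH replicate 1), whereas *NFKB1* had 624 and 546 normalized counts in ETH and 766 and 736 in TAM and did not pass (log2 fold change 0.36, adjusted p 0.16), as did *RELA* at 0.64 (adjusted p 0.13) and *REL* at 0.05 (adjusted p 0.99). Of 22 inhibitors and kinases, 4 were higher, against 4.56% of all genes. *TNFAIP3*, which encodes the inhibitor A20, had 211 and 205 in ETH and 607 and 520.4 in TAM and held (log2 fold change 1.44, SE 0.19, adjusted p 5.0e-12), whereas *NFKBIA*, the gene of the inhibitor IκBα, changed by 0.39 (not held, adjusted p 0.66 without Ctrli_ETH replicate 2). Of 15 tested target genes 8 were higher and 0 lower, with a median of 0.82. *ICAM1*, an adhesion molecule for leukocytes, had 317 and 301 in ETH and 957 and 954 in TAM, the chemokine gene *CCL20* had 241 and 144 in ETH and 1132 and 1018 in TAM, and *IL1B* had 422 and 273 in ETH and 896 and 857 in TAM. For each of them both TAM libraries lay above both ETH libraries (log2 fold changes 1.63, 2.48 and 1.33).

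Some cytokine genes rose from low levels. *IL24*, a secreted member of the IL-10 family, had 14.6 and 10.4 normalized counts in ETH and 6566 and 6036 in TAM (log2 fold change 8.97, SE 0.28, adjusted p 2.3e-223), and *IL20*, its neighbour on chromosome 1, had 1 count in ETH and 56 in TAM, a ratio of 81.3 with a 95% counting interval from 14.01 to 3269 (not held). Of 10 tested genes of the IL-1 family and its receptors, 7 were higher and 1 lower, against 4.56% and 1.56% of all genes. *IL33*, an alarmin stored in nuclei, had 0 and 0 normalized counts in ETH and 82.3 and 83.6 in TAM, at least 33.8-fold higher when 3 counts per ETH library are taken as the floor. The gene of its receptor, *IL1RL1*, had 251 and 291 in ETH and 4238 and 4647 in TAM (log2 fold change 4.04, SE 0.12, adjusted p 6.8e-229), and that of the shared co-receptor, *IL1RAP*, had 219 and 189 in ETH and 1116 and 1013 in TAM (log2 fold change 2.38, SE 0.17, adjusted p 3.2e-44). Ligand, receptor and co-receptor of this axis were all higher in both TAM libraries. The decoy receptor gene *IL1R2* rose by 2.01, and *IL18* was lower (-0.75, not held, adjusted p 0.1 without Ctrli_ETH replicate 1). *IL1RL1* overlaps *IL18R1*, which changed by 1.41 (not held, adjusted p 0.19 without Ctrli_ETH replicate 1).

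None of the 4 tested cytokines of the IL-6 family was called. *IL6* itself had 0 and 0 normalized counts in ETH and 1.91 and 1.55 in TAM and no adjusted p, so that no difference was detectable at this depth, and *LIF* was at 0.38 (adjusted p 0.83). The study, by qPCR and ELISA, described the mRNA and the secreted protein of IL-6 as induced during transformation. *CSF3*, the gene of granulocyte colony-stimulating factor, had 1092 and 773 in ETH and 2398 and 2591 in TAM (log2 fold change 1.42, not held, adjusted p 0.036 without Ctrli_TAM replicate 2). Of 8 tested chemokines 5 were higher, among them *CXCL3* (1.93), *CXCL8*, the gene of IL-8 (1.03, not held, adjusted p 0.061 without Ctrli_ETH replicate 2), and *CXCL2* (0.87, not held, adjusted p 0.4 without Ctrli_ETH replicate 2). *CCL2* had 0 counts in ETH and 39 in TAM, at least 8.57-fold higher (not held). Of 11 chemokine receptors in the list only 2, which bind CXCL8, could be tested, and both were higher. *CXCR1* had 9.96 and 6.08 normalized counts in ETH and 254 and 242 in TAM (log2 fold change 4.94, SE 0.44, adjusted p 2.6e-27). *CXCR2* had 8.43 and 3.48 in ETH and 135 and 116 in TAM (log2 fold change 4.38, SE 0.56, adjusted p 3.9e-13). Both were low in ETH, and a filter on the mean count favours receptors that are high in TAM. In the TNF superfamily 3 of 15 were higher, with *TNFRSF21* at 43.7 and 46.1 in ETH and 343 and 251 in TAM (log2 fold change 2.73, SE 0.30, adjusted p 2.1e-17). *TNFRSF11B*, the gene of the decoy receptor osteoprotegerin, changed by 4.34 (not held, adjusted p 0.2 without Ctrli_TAM replicate 1).

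Acute phase proteins are plasma proteins that the liver and epithelia release in inflammation. Of 19 listed genes 10 could be tested, and 8 were higher, against 4.56% of all genes. The median log2 fold change was 4.05 over the 8 with a mean count of at least 10. It was 3.91 with *LBP*, which had no count in ETH, set to its lower bound. A filter on the mean count favours members that are high in TAM, such as *LBP*, *HP* and *LRG1*, and can raise this share and median. *SERPINA3* had 273 and 296 normalized counts in ETH and 9637 and 9197 in TAM (log2 fold change 5.05, SE 0.11, adjusted p below the smallest number the software can hold), *SERPINA1*, the gene of alpha-1-antitrypsin, had 375 and 365 in ETH and 5829.7 and 5396 in TAM (log2 fold change 3.92, SE 0.11, adjusted p 1.2e-277), and *SAA1*, a serum amyloid gene already expressed in ETH, had 4404 and 3269.5 in ETH and 19855 and 18509.5 in TAM (log2 fold change 2.32, SE 0.13, adjusted p 1.7e-71). These genes were abundant in both TAM libraries and the groups lay far apart. *HP*, the gene of haptoglobin, had 2.3 and 3.48 in ETH and 127 and 101 in TAM, and *LRG1*, whose promoter is shown above, had 11.5 and 7.82 in ETH and 199 and 153 in TAM (log2 fold changes 5.32 and 4.18). *SAA2* rose by 3.90. *LBP* had 0 counts in ETH and 40 in TAM, at least 9.49-fold higher (not held), and *SAA4*, which shares reads with its neighbours, is uncertain. *HP* overlaps *TXNL4B* on the opposite strand, and *SAA2* overlaps the readthrough gene *SAA2-SAA4*. The granule proteins S100A8 and S100A9, which together form calprotectin, showed the largest absolute rise of the S100 family. *S100A8* had 272 and 264 normalized counts in ETH and 15147 and 15206 in TAM (log2 fold change 5.82, SE 0.10, adjusted p below the smallest number the software can hold) and *S100A9* had 1065 and 1164 in ETH and 36920.1 and 44424 in TAM (log2 fold change 5.19, SE 0.11, adjusted p below the smallest number the software can hold), and *S100P* rose by 1.66. *S100A2* and *S100A14*, both epithelial members, moved the other way. *S100A2* had 16669.5 and 18142 in ETH and 9127 and 8268 in TAM and *S100A14* had 3933 and 4332 in ETH and 2047 and 2124 in TAM (log2 fold change of *S100A14* -0.99, adjusted p 4.3e-25 for *S100A2* and 6.0e-20 for *S100A14*). The antimicrobial genes *SLPI* and *PI3* changed by 0.75 (not held, adjusted p 0.052 without Ctrli_ETH replicate 1) and 0.89 (not held, adjusted p 0.24 without Ctrli_ETH replicate 2).

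Of 15 tested complement genes 9 were higher and 1 lower, against 4.56% and 1.56% of all genes. The proteases that start the classical pathway were both higher, *C1R* with 331.7 and 345.0 normalized counts in ETH and 2382.0 and 2272.2 in TAM (log2 fold change 2.78, SE 0.12, adjusted p 3.6e-107) and *C1S* with 142 and 119.9 in ETH and 603 and 568 in TAM (log2 fold change 2.16, SE 0.20, adjusted p 2.6e-24). *CFB*, the protease of the alternative pathway, rose by 2.25, and so did the inhibitors *CFI* (1.87), *CD59* (1.24) and *CD55* (1.05). *CLU*, which encodes the chaperone and complement inhibitor clusterin, was lower (-0.99, not held, adjusted p 0.56 without Ctrli_ETH replicate 2). *C1R* overlaps *C1RL*, and *C1S* overlaps *LPCAT3*. Interferon-stimulated genes were higher in 6 of 35 cases, led by the neighbouring antiviral genes *IFITM1* (195 and 199.9 in ETH and 811 and 1021 in TAM), *IFITM3* (1779 and 2028 in ETH and 6517 and 6014 in TAM) and *IFITM2* (932 and 1062 in ETH and 2806 and 2788 in TAM). The median of that list was 0.57. Of the class I antigen presentation genes, which carry peptides to the cell surface, 9 of 21 were higher and 20 of 21 were above 0. Only the call of *HLA-B* held (968 and 1220.2 normalized counts in ETH and 2039 and 2182 in TAM, log2 fold change 0.95, SE 0.14, adjusted p 2.6e-10). *TAP1*, the peptide transporter gene, changed by 0.74 (not held, adjusted p 0.078 without Ctrli_TAM replicate 2) and *B2M* by 0.41 (not held, adjusted p 0.19 without Ctrli_ETH replicate 2). None of the 3 tested class II genes was called, and *CD74* was at 3.58 (adjusted p 0.015).

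Protease inhibitors of the serpin family were called higher in 7 of 14 tested cases, against 4.56% of all genes, and all 7 held. Besides those above, *SERPINB13* had 26.8 and 29.5 normalized counts in ETH and 505 and 486 in TAM (log2 fold change 4.14, SE 0.27, adjusted p 5.8e-50), *SERPINB1*, an inhibitor of neutrophil proteases, had 477 and 413 in ETH and 5721 and 5564 in TAM (log2 fold change 3.66, SE 0.11, adjusted p 1.1e-234), and *SERPINF2*, the gene of alpha-2-antiplasmin, had 32.2 and 40.8 in ETH and 283 and 242 in TAM (log2 fold change 2.85, SE 0.32, adjusted p 1.4e-17). In each of them both TAM libraries lay far above both ETH libraries. *SERPINB5*, which encodes maspin, was lower (-0.53, not held, adjusted p 0.16 without Ctrli_ETH replicate 1). In the plasminogen system the urokinase gene *PLAU* had 103 and 123 in ETH and 347 and 336 in TAM, its receptor gene *PLAUR* had 160.1 and 147 in ETH and 796 and 764 in TAM, and the inhibitor gene *SERPINE2* had 58.2 and 70.4 in ETH and 649.5 and 593 in TAM (log2 fold changes 1.60, 2.34 and 3.28). *PLAT*, the tissue-type activator, went the other way at 771 and 813 in ETH and 393 and 397 in TAM (log2 fold change -1.004, SE 0.16, adjusted p 8.3e-09).

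Of 14 tested ADAM and ADAMTS proteases 4 were higher, against 4.56% of all genes. *ADAMTS4*, which cleaves the proteoglycan aggrecan, had 1.53 and 1.74 normalized counts in ETH and 967 and 852 in TAM (log2 fold change 9.13, SE 0.74, adjusted p 1.9e-32), *ADAM19* had 10.7 and 18.3 in ETH and 379.8 and 285 in TAM and *ADAMTS9* had 36 and 36.5 in ETH and 535 and 383 in TAM (log2 fold changes 4.54 and 3.67). Among the MMPs, *MMP14*, the membrane-bound collagenase, had 893 and 945 in ETH and 2517 and 2624 in TAM (log2 fold change 1.48, SE 0.11, adjusted p 3.3e-38), while *MMP3* had 0 counts in ETH and 27 in TAM, at least 6.35-fold higher (not held). The inhibitors moved in opposite directions, since *TIMP1* had 2750.4 and 3249 in ETH and 6502 and 6799.7 in TAM (log2 fold change 1.15, SE 0.11, adjusted p 6.4e-25) and *TIMP3*, as above, fell by 2.82 on the log2 scale.

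Several adhesion and matrix genes were higher in TAM. *TNC*, which encodes the matrix protein tenascin-C of wounds and tumor stroma, had 20.7 and 31.3 normalized counts in ETH and 3240.1 and 2398 in TAM (log2 fold change 6.78, SE 0.24, adjusted p 8.6e-171). *LOX*, a collagen cross-linking enzyme, had 221 and 231 in ETH and 1201 and 1234 in TAM, *FBN2* had 3379 and 3590.2 in ETH and 10290.4 and 8612 in TAM and *FN1*, the fibronectin gene, had 3428 and 3947 in ETH and 6114 and 5769.7 in TAM (log2 fold changes 2.43, 1.44 and 0.69). In each of these the TAM libraries lay above the ETH libraries, whereas *THBS1*, encoding thrombospondin-1, was lower at 6658 and 6806 in ETH and 2756 and 2584 in TAM (log2 fold change -1.33, SE 0.09, adjusted p 2.5e-45). Of 23 tested matrix proteins other than collagens 7 were higher and 1 lower. Of 17 tested integrins 5 were higher and 2 lower, against 4.56% and 1.56% of all genes. *ITGB6*, the epithelial subunit that joins alpha V and activates latent TGF-beta, had 159 and 163 normalized counts in ETH and 1644 and 1510.2 in TAM (log2 fold change 3.29, SE 0.15, adjusted p 3.4e-102), and *ITGA5*, a subunit of the fibronectin receptor, rose by 1.24. *ITGA2* rose by 1.02 (not held, adjusted p 0.011 without Ctrli_TAM replicate 1), and *ITGA10* and *ITGB5* were lower (-1.36, not held, adjusted p 0.29 without Ctrli_ETH replicate 2, and -0.58, not held, adjusted p 0.45 without Ctrli_TAM replicate 1). *LOX* overlaps *SRFBP1* and *FBN2* overlaps *SLC27A6*, both on the opposite strand. Of the chains of laminin-332, the anchor of basal epithelium, *LAMB3* was higher (4275 and 4254 in ETH and 7182 and 7043 in TAM, log2 fold change 0.74) and *LAMA3* was called lower (-0.42, not held, adjusted p 0.2 without Ctrli_ETH replicate 1). *CDH3*, the gene of P-cadherin, rose by 1.15, and *CDH1*, the gene of E-cadherin, was at -0.25 (adjusted p 0.64). Among genes of the epithelial-mesenchymal transition 3 of 18 were called, *FN1*, *GRHL1*, an epithelial factor (2.49, not held, adjusted p 0.017 without Ctrli_TAM replicate 1), and *SNAI1*, a repressor of E-cadherin, with 2.3 and 0.869 in ETH and 46.9 and 43.4 in TAM (4.80, not held, adjusted p 0.036 without Ctrli_TAM replicate 1). *VIM*, *ZEB1* and *TWIST1* were at 0.07, 0.39 and 0.09 (adjusted p 0.95, 0.48 and 0.98). The surface gene *CD44* had 2022 and 2076 in ETH and 4149.9 and 3689.5 in TAM (log2 fold change 0.94, SE 0.10, adjusted p 3.1e-17) and *CD24* had 808 and 705 in ETH and 329 and 353 in TAM (log2 fold change -1.15, SE 0.17, adjusted p 7.6e-10), with *CD44* higher and *CD24* lower in both TAM libraries. The list of stem-like surface and hyaluronan genes was split, with 3 of 12 tested members higher, 3 lower and a median of -0.09. *ALDH1A3*, described below, was lower.

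Keratins form the intermediate filaments of epithelia and differ by layer and by stress. Of the 6 tested suprabasal and stress keratins 5 were higher, against 4.56% of all genes. *KRT6A* had 9806 and 10386 normalized counts in ETH and 41954 and 38775 in TAM (log2 fold change 2.00, SE 0.08, adjusted p 1.4e-119), *KRT6B* had 122 and 130.4 in ETH and 1005 and 931 in TAM (log2 fold change 2.94, SE 0.18, adjusted p 2.4e-60) and their partner *KRT16* had 182 and 254 in ETH and 813 and 881 in TAM (log2 fold change 1.96, SE 0.19, adjusted p 7.2e-22). All are keratins of wounded epidermis, and in each the TAM libraries stood above ETH; *KRT6C* shares reads with its copies and is uncertain. The list of basal and simple keratins also held the hair-type *KRT81* and *KRT86*, and *KRT17*, which is a keratin of wounded epidermis as well. Of its 11 tested members 2 were higher (*KRT17* and *KRT14*) and 4 lower (*KRT81*, *KRT86*, *KRT15* and *KRT7*). The calls of *KRT86* and *KRT7* were not held. *KRT17* had 8839 and 9599 in ETH and 34038 and 37499 in TAM (log2 fold change 1.96, SE 0.09, adjusted p 2.8e-101), and *KRT14* rose by 0.90 (not held, adjusted p 0.1 without Ctrli_TAM replicate 2). *KRT81*, a hair-type keratin and one of the most abundant transcripts in ETH, had 48242 and 53903 in ETH and 14981 and 17706 in TAM (log2 fold change -1.64, SE 0.10, adjusted p 3.0e-54), and *KRT15* had 716 and 1490.5 in ETH and 210.5 and 265 in TAM (log2 fold change -2.22, not held, adjusted p 0.26 without Ctrli_TAM replicate 1). *KRT81* overlaps *KRT86*. The cornified envelope gene *PPL*, encoding periplakin, was lower at 837 and 1079 in ETH and 305 and 350.1 in TAM (log2 fold change -1.55, SE 0.18, adjusted p 1.6e-15). Epithelial transcription factors were higher in 7 of 32 cases, of which *ELF3* (7.66 and 10.4 in ETH and 166 and 130.1 in TAM) and *ETS2* (649.7 and 733 in ETH and 3455 and 3671 in TAM) held; *TP63*, the basal master factor, was at -0.30 (adjusted p 0.75). *CHI3L1*, a secreted chitinase-like protein, had 7.66 and 10.4 in ETH and 1029 and 914 in TAM (log2 fold change 6.76, SE 0.35, adjusted p 1.0e-79).

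**Figure D3:**
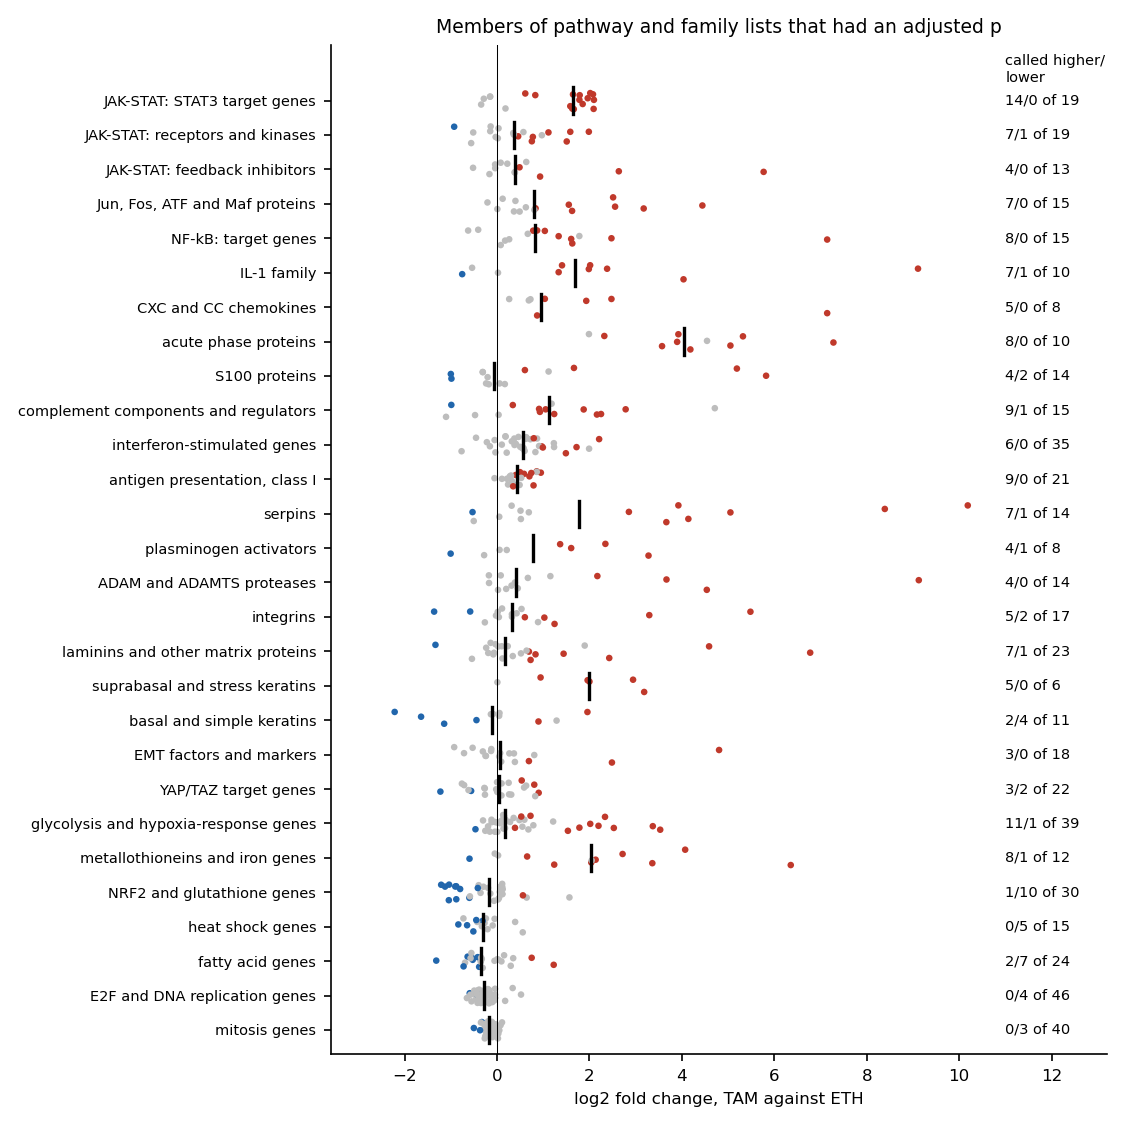
Log2 fold change of TAM against ETH for the tested members of 28 lists, one point per gene (a fitted value and no bound where one group held 3 counts or fewer, as for *IL33*), in red where called higher, blue where called lower and grey otherwise. The black bar is the median over members with a mean count of at least 10, and the numbers at the right give the members called higher and lower of those tested, with acute phase proteins at the highest median (4.05) and fatty acid genes the lowest (-0.34). The filter on the mean count favours members that are high in TAM.

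Genes that respond to hypoxia were higher in part. Of 39 tested glycolysis and hypoxia genes 11 were higher and 1 lower, against 4.56% and 1.56% of all genes, and the median was 0.18. *HIF1A*, the gene of the oxygen-regulated factor, had 3196 and 3087 normalized counts in ETH and 10410.0 and 11208 in TAM (log2 fold change 1.78, SE 0.09, adjusted p 6.0e-86), and its relative *EPAS1* had 1056 and 1092 in ETH and 3239 and 2972 in TAM (log2 fold change 1.53, SE 0.11, adjusted p 1.4e-42). *ANGPTL4*, a secreted inhibitor of lipoprotein lipase, had 311 and 395 in ETH and 4011 and 4140.2 in TAM (log2 fold change 3.53, SE 0.13, adjusted p 8.1e-160). All 3 were higher in both TAM libraries, as were *NDRG1* (2.53), the glycolytic regulator *PFKFB3* (2.34), the glucose transporter *SLC2A3* (2.20) and *VEGFA*, the vascular growth factor (2.02). *LDHA* changed by 0.39 (not held, adjusted p 0.2 in the fit over all groups) and *HK2* by 0.72 (not held, adjusted p 0.039 without Ctrli_TAM replicate 1). Genes that bind or carry metals were higher in 8 of 12 tested cases and lower in 1. The metallothionein *MT1X* had 604 and 522 normalized counts in ETH and 9145 and 9806 in TAM (log2 fold change 4.07, SE 0.11, adjusted p below the smallest number the software can hold), *MT1F* had 28.3 and 32.2 in ETH and 289.9 and 331 in TAM and *MT2A* had 13066 and 11008 in ETH and 27132 and 29631 in TAM (log2 fold changes 3.36 and 1.24). The zinc importers *SLC39A14* and *SLC39A8* rose by 2.04 and 2.13 and the metalloreductase gene *STEAP1* by 2.72, whereas the zinc exporter *SLC30A1* was lower (-0.60, not held, adjusted p 0.18 without Ctrli_ETH replicate 1). Metallothioneins are similar in sequence, and the RSEM spread was 0.266% for *MT1X*, 1.8% for *MT1F* and 0.0455% for *MT2A*.

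Genes of the NRF2 response, which make glutathione and remove oxidants, were lower in 10 of 30 tested cases and higher in 1, against 1.56% of all genes lower. *NQO1*, a quinone reductase, had 4316 and 4251 normalized counts in ETH and 2099.8 and 2054 in TAM (log2 fold change -1.04, SE 0.09, adjusted p 5.4e-26). *GCLC*, the catalytic subunit for glutathione synthesis, had 1169.9 and 1177 in ETH and 584 and 558 in TAM (log2 fold change -1.04, SE 0.14, adjusted p 1.7e-12), and *SLC3A2*, a chain of the cystine importer, had 4860.3 and 5359.7 in ETH and 2277 and 2410.1 in TAM (log2 fold change -1.13, SE 0.10, adjusted p 1.0e-26). In each of these the TAM libraries stood below the ETH libraries, by 2.06-fold, 2.05-fold and 2.18-fold. *TXNRD1* fell by 0.80, *AKR1C1* by 1.21 (not held, adjusted p 0.024 in the fit over all groups), *GSR* by 0.88 (not held, adjusted p 0.011 without Ctrli_ETH replicate 2) and *SLC7A11* by 0.90 (not held, adjusted p 0.28 without Ctrli_ETH replicate 1). *FTH1*, the ferritin heavy chain, was the member that rose (0.56), and *HMOX1* was at 0.64 (adjusted p 0.73). The median of the whole list was -0.17, and 13 of 30 members were above 0.

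Heat shock genes were lower in 5 of 15 cases and higher in 0, against 1.56% and 4.56% of all genes. *HSP90AA1*, the inducible HSP90, had 23736 and 20896 normalized counts in ETH and 12414 and 12557 in TAM (log2 fold change -0.84, SE 0.09, adjusted p 3.2e-18) and held, and *HSPA1A* had 3799 and 3814 in ETH and 2373 and 2488 in TAM (-0.65, not held, adjusted p 0.073 in the fit over all groups). The other 3, *DNAJB1* (-0.51, not held, adjusted p 0.25 without Ctrli_ETH replicate 1), *HSPH1* (-0.45, not held, adjusted p 0.36 without Ctrli_ETH replicate 1) and *HSPD1* (-0.31, not held, adjusted p 0.67 without Ctrli_ETH replicate 1), changed less. *HSP90AA1*, *DNAJB1* and *HSPD1* overlap *WDR20*, *TECR* and *HSPE1* on the opposite strand. Fatty acid genes were lower in 7 and higher in 2 of 24. *LPIN1*, a phosphatidate phosphatase, had 1617 and 1727 in ETH and 689 and 652 in TAM (log2 fold change -1.32, SE 0.13, adjusted p 5.1e-23) and *SCD*, the stearoyl-CoA desaturase, had 12614 and 12609 in ETH and 8429 and 7780.2 in TAM (-0.64, not held, adjusted p 0.026 in the fit over all groups), whereas the acyl-CoA synthetase gene *ACSL1* had 2393 and 2545 in ETH and 5843 and 5705 in TAM (log2 fold change 1.23, SE 0.09, adjusted p 1.8e-37). Of 23 cholesterol genes 3 were higher and 1 lower, none of which held, and of 35 oxidative phosphorylation genes 1 was lower, also not held. Of 35 ATF4 and unfolded protein response genes 2 were higher and 3 lower, with a median of 0.05.

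The cell cycle genes that were called were all lower, against 4.56% of all genes higher and 1.56% lower. Of 46 tested E2F and DNA replication genes 4 were called lower and 0 higher, 43 were below 0, and the median was -0.29. *PCNA*, the clamp of the replicative polymerases, had 1720.0 and 1628 normalized counts in ETH and 1143 and 1076 in TAM (-0.59, not held, adjusted p 0.1 without Ctrli_ETH replicate 1), and the helicase gene *MCM2* had 1724 and 1689 in ETH and 1312 and 1264 in TAM (-0.41, not held, adjusted p 0.48 without Ctrli_ETH replicate 1). Of 40 mitosis genes 3 were called lower and 0 higher, with a median of -0.17. No call in these lists held under every alternative. None of 18 tested G1 cyclins, CDK inhibitors and MYC partners was called, and *CDKN1A*, the gene of p21, was at 0.02 (adjusted p 0.99). Among 28 p53 target genes 2 were higher and 1 lower, and among 25 genes of the BCL2 family and caspases 5 were higher, including the survival gene *MCL1* (5601 and 5732 in ETH and 8311 and 9001 in TAM, log2 fold change 0.61), the death gene *BIK* (2.31) and the inflammatory caspase *CASP4* (1.22). Of 43 ribosomal protein genes 1 was called higher and 40 were above 0, with a median of 0.15.

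Growth factor and developmental lists differed in how many members were called, against 4.56% of all genes higher and 1.56% lower. In the Wnt list no gene of 26 was higher and 2 were lower, both secreted antagonists: *DKK1* had 1631 and 1763 normalized counts in ETH and 531 and 716 in TAM (log2 fold change -1.45, SE 0.16, adjusted p 1.8e-18) and *SFRP1* had 2725 and 3002 in ETH and 1386 and 1527 in TAM (log2 fold change -0.98, SE 0.11, adjusted p 7.5e-16). In both, the TAM libraries lay below the ETH libraries. Among EGF receptors and ligands *EPGN*, the gene of epigen, fell by 1.18 and was the one called of 13 tested, and *EGFR* was at -0.40 (adjusted p 0.07). Of 32 other growth factors and receptors 7 were higher and 2 lower; *EFNA1* and *NRP2* rose by 1.90 and 1.85 and *FGFBP1*, a carrier of FGFs, fell by 1.51. In the TGF-beta list 6 of 37 were higher, of which the pseudoreceptor gene *BAMBI* (46.7 and 26.1 in ETH and 223 and 221 in TAM) and the activin antagonist *FSTL3* (819.8 and 979 in ETH and 1984 and 2246 in TAM) held. Among Hippo regulators 5 of 24 were higher: the upstream scaffold gene *WWC1*, or KIBRA, had 569 and 543 in ETH and 3599.8 and 3233 in TAM (log2 fold change 2.62, SE 0.12, adjusted p 3.5e-109) and *VGLL4*, a competitor of YAP for TEAD, had 160.1 and 191 in ETH and 546 and 590.1 in TAM (log2 fold change 1.69, SE 0.20, adjusted p 1.4e-15), though it overlaps *ATG7* on the opposite strand. The co-activator genes themselves did not differ detectably, with *YAP1* at 1626 and 1510.5 in ETH and 1665 and 1654 in TAM (log2 fold change 0.08, SE 0.11, adjusted p 0.91) and *WWTR1*, which encodes TAZ, at 293 and 325 in ETH and 364 and 366 in TAM (log2 fold change 0.24, SE 0.20, adjusted p 0.71). Of 22 YAP/TAZ target genes 3 were higher and 2 lower, with a median of 0.05; *AJUBA* fell by 1.23 and held, and the classical targets *CCN1*, *CCN2* and *ANKRD1* were at 0.10, -0.27 and -0.76 (adjusted p 0.93, 0.91 and 0.57). In the Notch list *JAG1* was the gene called of 16 (1.13, not held, adjusted p 0.039 with effective-length offsets), and none of 13 prostaglandin and leukotriene genes was called, *PTGS2* being at 0.66 (adjusted p 0.62).

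Further lists are given by their counts, to be read against 4.56% of all genes higher and 1.56% lower. Of 9 desmosome genes 1 was higher (*DSG3*, 0.76) and 1 lower, of 16 tight junction genes 1 was higher, and of 20 collagens 2 were higher and 1 lower. *DST*, which encodes a hemidesmosome linker, fell by 0.66. Of 26 contractile and serum response factor target genes 5 were higher and 0 lower, none of which held, with *TAGLN*, encoding the actin-binding transgelin, at 46.7 and 45.2 in ETH and 118 and 142 in TAM (1.50, not held, adjusted p 0.23 without Ctrli_TAM replicate 2). *ALDH1A3*, a retinaldehyde dehydrogenase used to mark stem-like mammary cells, had 673 and 635 in ETH and 283 and 248 in TAM (log2 fold change -1.30, SE 0.18, adjusted p 3.9e-11), while *HAS2*, a hyaluronan synthase, was at 2.12 (not held, adjusted p 0.1 without Ctrli_TAM replicate 2). The mucin gene *MUC1* was at 2.10 (not held, adjusted p 0.68 without Ctrli_TAM replicate 1), and *CLCA2*, encoding a surface protein of epithelia, rose by 0.95. Of the 7 interferon regulatory factors 2 were higher, *IRF1* (0.83, not held, adjusted p 0.45 without Ctrli_TAM replicate 1) and *IRF9* (1.35, not held, adjusted p 0.19 without Ctrli_TAM replicate 1). Of 31 ribosome biogenesis and MYC target genes 1 was lower.

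**Figure D4:**
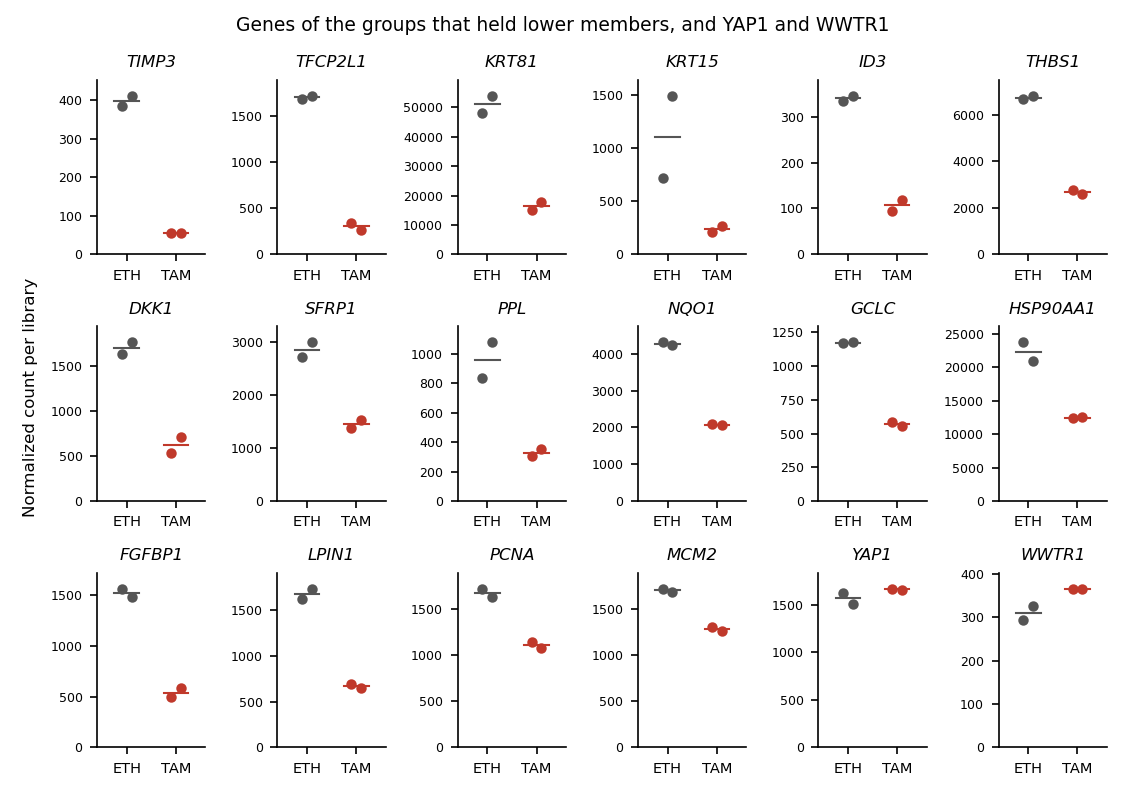
Normalized counts in each library for 16 genes described as lower in TAM and for *YAP1* and *WWTR1*, with grey points for ETH, red points for TAM, a bar at each group mean and each vertical axis starting at 0. The 16 genes are lower in both TAM libraries (the calls of *KRT15*, *PCNA* and *MCM2* were not held), and the log2 fold changes of *YAP1* and *WWTR1* are 0.08 and 0.24.

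The same treatments were also given to ER-Src cells with siRNAs against YAP (YAPi), TAZ (TAZi), STAT3 (STAT3i) or JUNB (JUNBi), each with 2 TAM and 2 ETH libraries that are not part of the comparison above. Their ratios of TAM to ETH are given as values, without a call and without a test of a difference from Ctrli. Of the 726 genes called higher in Ctrli, 97.0% were above 0 with the YAP siRNA, 94.6% with TAZ, 84.2% with STAT3 and 89.4% with JUNB. Their median log2 fold change, 1.28 in Ctrli, was 0.86, 0.96, 0.42 and 0.77. Of the 248 genes called lower, 83.9%, 87.9%, 65.7% and 76.6% were below 0, with medians of -0.48, -0.72, -0.16 and -0.60 against -0.84. The Ctrli values chose these genes, which favours larger values in Ctrli. The values below run in the order of the siRNAs named first, that is YAP, TAZ, STAT3 and JUNB. *SOCS3* was at 5.49 (YAPi), 5.77 (TAZi), 3.02 (STAT3i) and 4.89 (JUNBi), and *S100A9* at 3.14 (YAPi), 5.03 (TAZi), 2.19 (STAT3i) and 5.70 (JUNBi). *SERPINB3* was at 7.45 (YAPi), 7.70 (TAZi), 5.20 (STAT3i) and 7.46 (JUNBi). The values for *FOS* were 1.60 (YAPi), 2.25 (TAZi), -0.27 (STAT3i) and 1.94 (JUNBi), against 2.55 in Ctrli. *NDRG1* gave 0.25 (YAPi), 0.64 (TAZi), 0.97 (STAT3i) and -0.78 (JUNBi), against 2.53. The STAT3 target list had medians of 1.37, 1.16, 0.16 and 0.59, and the acute phase list 4.49, 4.78, 1.77 and 3.67. Metallothioneins and iron genes had 2.20, 2.46, 0.25 and 2.04, against 2.04 in Ctrli. The E2F list, at -0.29 in Ctrli, had -0.15, -0.03, -0.38 and 0.33. Of the genes named here *SOCS3*, *S100A9*, *SERPINB3* and *FOS* lay nearest to 0 in STAT3i, and *NDRG1* in YAPi.

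**Figure D5:**
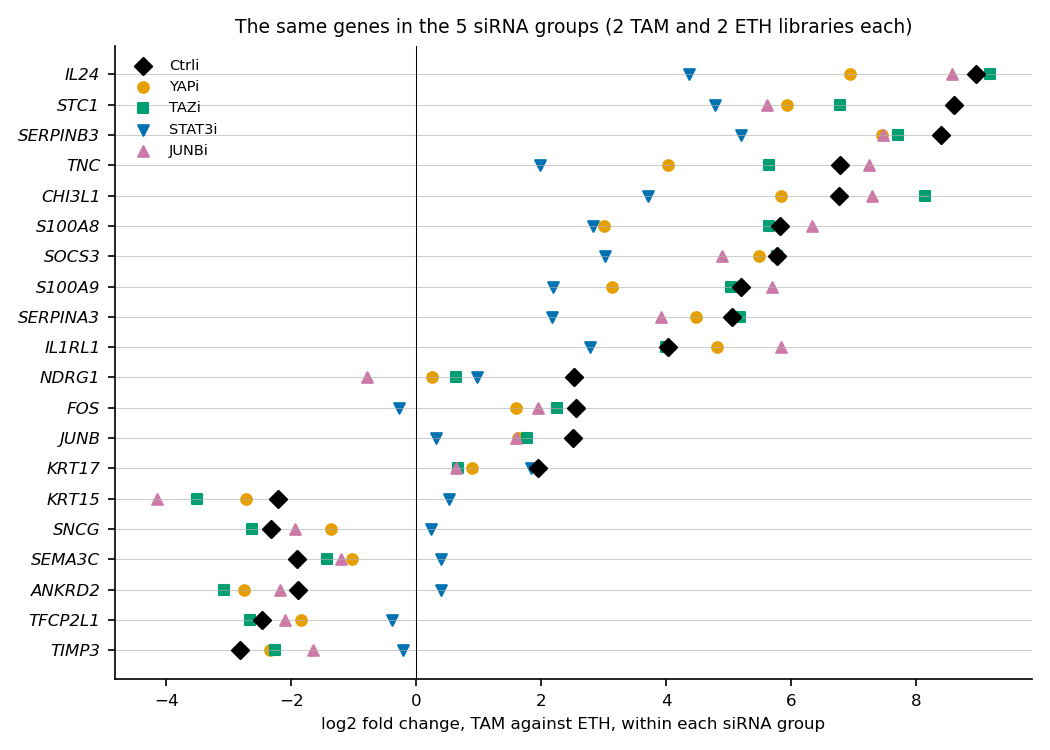
Log2 fold change of TAM against ETH for 20 genes in Ctrli (black diamonds) and in the libraries with siRNA against YAP, TAZ, STAT3 or JUNB (coloured symbols), each from 2 TAM and 2 ETH libraries. The STAT3i points of the 6 genes that fell in Ctrli run from -0.38 for *TFCP2L1* to 0.52 for *KRT15* (not held in Ctrli), against -1.89 (*ANKRD2*) to -2.82 (*TIMP3*) in Ctrli.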

How the data were processed

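RNA-seq libraries were made from total RNA with the TruSeq Ribo Profile kit. Per the study's methods, the authors trimmed the reads, aligned them with STAR to the GENCODE v30 transcriptome (hg38), keeping up to 20 alignments per read, and ran RSEM, which splits reads among the genes they fit. Tool versions and strandedness are not given in the sources used here. The authors deposited estimated counts (expected counts, not normalized) and TPM per library. The expected counts were rounded, and 60725 Ensembl genes of 61471 identifiers were kept, 93.1% of which matched a name in GENCODE v44; 649 numeric identifiers, 96 spike-ins and 1 phiX entry were left out.

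The 2 Ctrli_TAM and 2 Ctrli_ETH libraries were compared with DESeq2 1.42.0 (R 4.3.3, Wald test, default size factors and filtering, no block), and genes were called at a Benjamini-Hochberg adjusted p under 0.01, as in the study's methods. Normalized counts are rounded counts divided by the DESeq2 size factors. The 11 alternatives were edgeR 4.0.16, TMM size factors, a mean count of at least 10, effective-length offsets, 1 fit over all ER-Src groups, protein-coding genes only, a replicate block and leaving out each library; where a group was left with 1 library, that library was assumed to vary like the other group. The scripts were tested on simulated data. Depth was 6419720 to 11942413 counts per library. Correlations of log counts across genes were 0.973 between TAM replicates, 0.984 between ETH replicates and 0.932 to 0.940 between groups. Ratios with intervals use exact 95% counting intervals and cover counting error only. A count of 0 was given a floor of 3 counts per library.

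The members of the 74 lists (1529 genes), the named genes and the tests were chosen with earlier results of these data known. Named genes were the 15 protein-coding genes that rose and the 15 that fell most among those called that averaged 100 or more normalized counts without overlap between groups, called list members with the largest changes, and check genes; other list members were given to account for the lists. A gene was taken to share reads where the RSEM posterior SD exceeded 0.1 of the posterior mean. TPM was used only to compare levels between genes. Promoters come from RefSeq (GRCh38.p14), as 250 bases before to 50 after a start. Some genes are not reported here.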

Additional observations from a re-analysis of the deposited data

Results flagged for a closer look

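Each gene below was among the 15 that fell most in Ctrli, and both TAM libraries lay above both ETH libraries in another siRNA group, opposite to Ctrli. The difference between the siRNA groups was not tested. *SNCG* had a log2 ratio of TAM to ETH of 0.23 in STAT3i, against -2.32 in Ctrli. *SEMA3C* stood at 0.39 and *ANKRD2* at 0.40 in STAT3i, against -1.91 and -1.89 in Ctrli. The readthrough gene *SENP3-EIF4A1*, which shares reads with its parts, stood at 1.68 in TAZi and 1.41 in JUNBi, against -1.98 in Ctrli. The readthrough gene *NME1-NME2*, which overlaps *NME1* and *NME2*, stood at 0.68 in JUNBi, against -1.68 in Ctrli. With 2 libraries in each group, no group was large enough for a search for single libraries that stand apart.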

How the results depend on the processing

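Against 974 called genes, edgeR called 1080 (879 of the 974), TMM size factors 968 (960), the count filter 1041 (952), effective-length offsets 953 (748), 1 fit over all ER-Src groups 990 (764) and protein-coding genes alone 1039 (901). No called gene changed its sign under any of the 11 alternatives. With 1 library left out, 420 to 500 genes were called (420 without the first ETH library, 443 without the second, 441 without the first TAM library and 500 without the second), of which 331 of the 974 were called each time, 280 higher and 51 lower. Of 316 called genes in the lists or among the largest changes, 136, 136, 134 and 121 lost their call in these fits, 58 in the fit over all groups, 49 with effective-length offsets and 34 with edgeR. With the replicate number as a block 626 were called (606 of the 974). The labels do not say that a number marks a shared culture, and deviations of same-numbered libraries from their group means correlated at 0.0690 across genes, so the pairing was not used. The share of called genes that were higher, 74.5%, was 66.4% with effective-length offsets and 85.3% without the second ETH library. Of 814 list medians under the alternatives, 714 lay within the spread of the library pairs. With 2 libraries a group and 6419720 counts in the shallowest, genes with few counts, *IL6* among them, could not be compared.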

Other observations

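Some genes outside the lists were chosen after their values were seen, because related members moved together. The lysosomal cathepsins *CTSB* and *CTSL* had 2098 and 2356 normalized counts in ETH and 12885 and 13218 in TAM and 916 and 947 in ETH and 6398 and 6567 in TAM (log2 fold changes 2.55 and 2.80). *NAMPT*, which makes an NAD precursor, had 1803 and 1549.6 in ETH and 13560.2 and 13629 in TAM (log2 fold change 3.02, SE 0.10, adjusted p 1.9e-200), and *TGM2*, a cross-linking transglutaminase, had 238 and 269 in ETH and 3474 and 3078 in TAM (log2 fold change 3.70, SE 0.13, adjusted p 1.4e-170). All of these were abundant and higher in both TAM libraries.

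Single genes best known from myeloid cells are given here because they were higher, and how many other such genes were not was not counted. *NLRP3*, an inflammasome sensor, had 8.43 and 6.08 normalized counts in ETH and 92.8 and 86.7 in TAM (log2 fold change 3.62, SE 0.57, adjusted p 1.1e-08), *NFE2*, a blood cell transcription factor, had 3.06 and 1.74 in ETH and 72.7 and 75.9 in TAM (log2 fold change 4.93, SE 0.79, adjusted p 1.7e-08), and *SIRPA*, a receptor for CD47, had 46.7 and 30.4 in ETH and 189 and 189 in TAM (log2 fold change 2.29, SE 0.35, adjusted p 4.4e-09). *PTAFR*, the receptor for platelet-activating factor, rose by 1.93, and the leukotriene B4 receptors *LTB4R* and *LTB4R2*, which overlap each other, rose by 2.25 and 2.53. *CD300E* had 0 and 0 in ETH and 107 and 96 in TAM, at least 41.4-fold higher (not held, adjusted p 0.22 with the replicate block). The pan-leukocyte marker *PTPRC* had 0 counts in all 4 libraries.

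*CAV1*, the main protein of caveolae, was lower with 4992 and 4709 normalized counts in ETH and 2381 and 2435 in TAM (log2 fold change -1.01, SE 0.10, adjusted p 2.8e-24). Both *TSC22D3* and *FKBP5*, known as glucocorticoid targets, were lower, with 1614 and 2252 in ETH and 505 and 610.3 in TAM and 5335 and 5436 in ETH and 3567 and 3511 in TAM (log2 fold changes -1.80 and -0.61), in cells whose medium held hydrocortisone in both groups. These genes were picked because they were lower, whereas *KLF9* and *DUSP1*, also known as glucocorticoid targets, rose by 1.68 and 0.69. How many other glucocorticoid targets rose or fell was not counted, and a change of the glucocorticoid response was not tested.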
